A study of Caenorhabditis elegans with 32 samples.

Results

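The csb-1 main effect was the difference between 16 arrays of worms that carried the csb-1(ok2335) allele and 16 arrays of worms with an intact csb-1 gene, out of 32 arrays in all. The arrays were taken by genotype label: csb-1(ok2335) single mutants and csa-1(tm4539);csb-1(ok2335) double mutants on one side, N2 wild type and csa-1(tm4539) single mutants on the other. Each of the 4 genotypes was measured on water vehicle and on 500 µM nicotinamide riboside (NR), an NAD+ precursor given from the L4 larval stage, with 4 arrays in each of the 8 groups. All worms were of the Bristol N2 background and were collected whole at adult day 7, so fewer cells of a type and less RNA per cell cannot be told apart. Csa-1 status and treatment were balanced across both sides and were terms of the additive model. All csb-1 mutant arrays carried the ok2335 allele, so other variants carried with it cannot be told apart from the csb-1 mutation. The study states that its mutant strains were backcrossed to N2. Per the study's methods, worms were kept on FUDR, which stops progeny from developing, unless noted otherwise.

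CSB-1 is the worm counterpart of human CSB, a DNA-dependent ATPase of the SWI2/SNF2 family that is recruited when RNA polymerase II stalls at a lesion. CSA-1 corresponds to human CSA, the substrate receptor of a ubiquitin ligase that acts in the same transcription-coupled branch of nucleotide excision repair. Loss of either protein in humans causes Cockayne syndrome, with neurodegeneration and signs of premature ageing.

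Levels are given on a log2 scale on which 0 is the mean of all gene spots on an array. Over the gene spots of an array, 46.9% to 78.11% were well above background on the intact arrays and 53.08% to 78.45% on the csb-1 mutant arrays. Each group had a slide to itself, so an effect of the slide and one of the group cannot be told apart.

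The csb-1 gene itself was reported by 7 probes, and 1 of them marked the mutation. Probe A_12_P159795 read -5.24, -3.46 and -2.07 (lowest, median and highest) on the 16 csb-1 mutant arrays and -4.55, -0.41 and 0.23 on the 16 intact arrays. It was well above background on 4 of the mutant and 14 of the intact arrays, and its difference was -2.93 (SE 0.36, limma adjusted p = 4.4e-06 over all probes). The other 6 csb-1 probes differed by -0.05 to 0.22 with a smallest adjusted p of 0.5, and none passed. At the brightest csb-1 probe, which stands for the gene in the fit across genes, the difference was -0.05 (SE 0.07, adjusted p = 0.79). The place of each probe relative to the deleted stretch was not analysed here.

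One intact array went against its label on the csb-1 probe. The array labelled as csa-1 NR replicate 4 read -4.55 on the csb-1 probe, whereas the next lowest intact array read -1.24. On the csa-1 probe A_12_P118898 it read 0.79. The other csa-1 mutant arrays read -2.35, -1.33 and -0.04 (lowest, median and highest) and the csa-1 intact arrays -1.65, -0.07 and 0.73. The value of -1.65 was that of N2 vehicle replicate 3, while the other N2 vehicle arrays read -0.75 to -0.01. Of the csa-1 vehicle arrays, replicates 1 and 2 read -1.35 and -2.34, but replicates 3 and 4 read -0.51 or higher. On vehicle this probe therefore did not separate N2 from csa-1 arrays, and the labels of these arrays were not tested further. The array labelled as csa-1 NR replicate 4 was kept under its label unless stated. Some counts and main effects are also given without it. Differences in the csa-1 NR pair and the interaction terms of single genes include it throughout. Without it the csb-1 probe difference was -3.19 (adjusted p = 1.8e-09) and the csa-1 mutants were lower on the csa-1 probe by -1.21 (adjusted p = 0.00072).

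**Figure D1:**
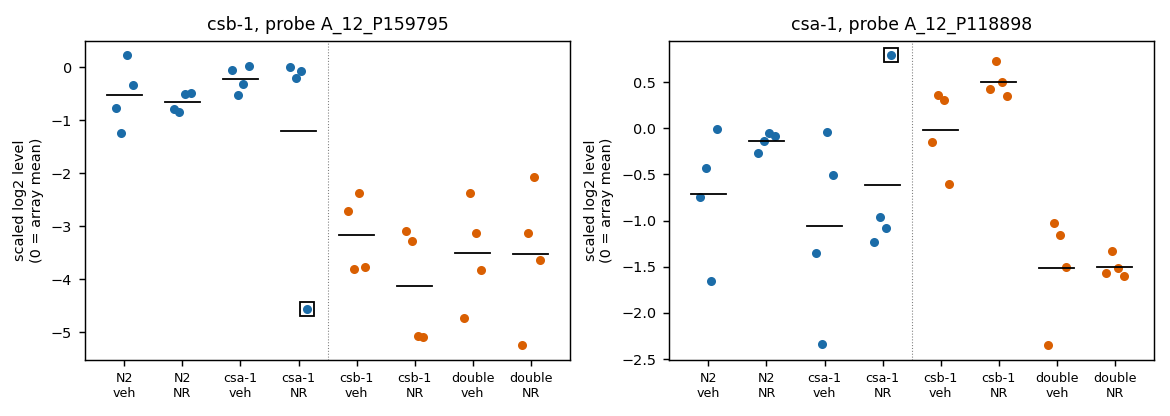
Scaled log2 level (0 is the array mean) of a csb-1 probe (left) and the csa-1 probe (right) on each of 32 arrays, in 8 groups of 4, with blue points for intact csb-1, orange points for csb-1 mutants and bars for group means. The array labelled as csa-1 NR replicate 4 (black square) reads -4.55 on the csb-1 probe and 0.79 on the csa-1 probe.

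Across 25497 genes, 391 genes (1.53%) differed by csb-1 status, and 74.4% of them were lower in the mutants. A gene was called when its adjusted p was at most 0.05, its difference was at least 1.5 SD of all differences (0.41 on the log2 scale) and its mean level was above 0. By these criteria 100 genes (0.392%) were higher and 291 (1.14%) were lower. The higher genes differed by 0.42 to 2.11 with a median of 0.64, and the lower genes by -6.72 to -0.41 with a median of -0.60. By adjusted p alone 696 genes (2.73%) passed, 217 higher (0.851%) and 479 lower (1.88%), and 3769 had an unadjusted p under 0.05.

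The csb-1 difference could be read in 4 separate pairs of groups: in N2 or in csa-1 mutants, and on vehicle or on NR. Of the 391 called genes, 340 had the same sign in all 4 pairs, as had 15.1% of all genes tested. The 391 were chosen on the mean of these same 4 differences, so nothing is read from that contrast. No gene separated the 16 mutant arrays fully from the 16 intact arrays. With csa-1 NR replicate 4 left out, 452 genes were called, 377 of them among the 391, 880 passed by adjusted p (3.45%), and 15 genes (0.0588%) separated both sets completely. With background correction by normexp 81 genes were called, and with slide as a random block 241. With the 8 slide means as the observations 5 genes were called.

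Among the called genes, whose mean level was above 0, the largest rise was that of scl-24. This gene, which encodes an SCP-like secreted protein, read 2.71, 3.60 and 4.52 (lowest, median and highest) on the 16 mutant arrays and 0.43, 1.55 and 3.49 on the 16 intact arrays. The highest intact value was that of the array labelled as csa-1 NR replicate 4, and the next highest was 2.35, below every mutant array. The difference was 2.11 (SE 0.23, adjusted p = 4.3e-07). Its relative scl-25 followed closely, with 3.46 as the mutant median, 1.36 as the intact median and a difference of 2.07 (SE 0.23, adjusted p = 6.5e-07).

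The saposin-like genes spp-9 and spp-21, which belong to a family of antimicrobial proteins, rose together. spp-9 read 1.76, 3.21 and 3.82 on the mutant arrays and -0.14, 1.1 and 3.58 on the intact arrays, a difference of 1.87 (SE 0.17, adjusted p = 2e-08). spp-21 had medians of 4.24 and 2.34 and a difference of 1.80 (SE 0.19, adjusted p = 2.3e-07). spp-9 was higher in the mutants in each of the 4 pairs, by 2.26 in N2 and 1.67 in csa-1 mutants on vehicle, and by 2.11 and 1.45 on NR. The 1.45 includes csa-1 NR replicate 4, which read 3.58, while the other csa-1 NR arrays read 1.07 to 1.79.

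The C-type lectin gene clec-60, of a family of sugar-binding proteins, had medians of 6.08 and 3.86 and a difference of 1.91 (SE 0.26, adjusted p = 1.7e-05). The other 7 of the 12 largest rises that had the same sign in all pairs were fbxa-192 (an F-box gene, 1.78), F14F9.6 (1.55), Y65B4BR.1 (1.34), H02F09.3 (1.32), clc-32 (1.29), rnh-1.3 (an RNase H gene, 1.29) and F25H5.7 (1.19). Of these, clc-32, rnh-1.3 and F25H5.7 separated all mutant arrays from the 15 other intact arrays.

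**Figure D2:**
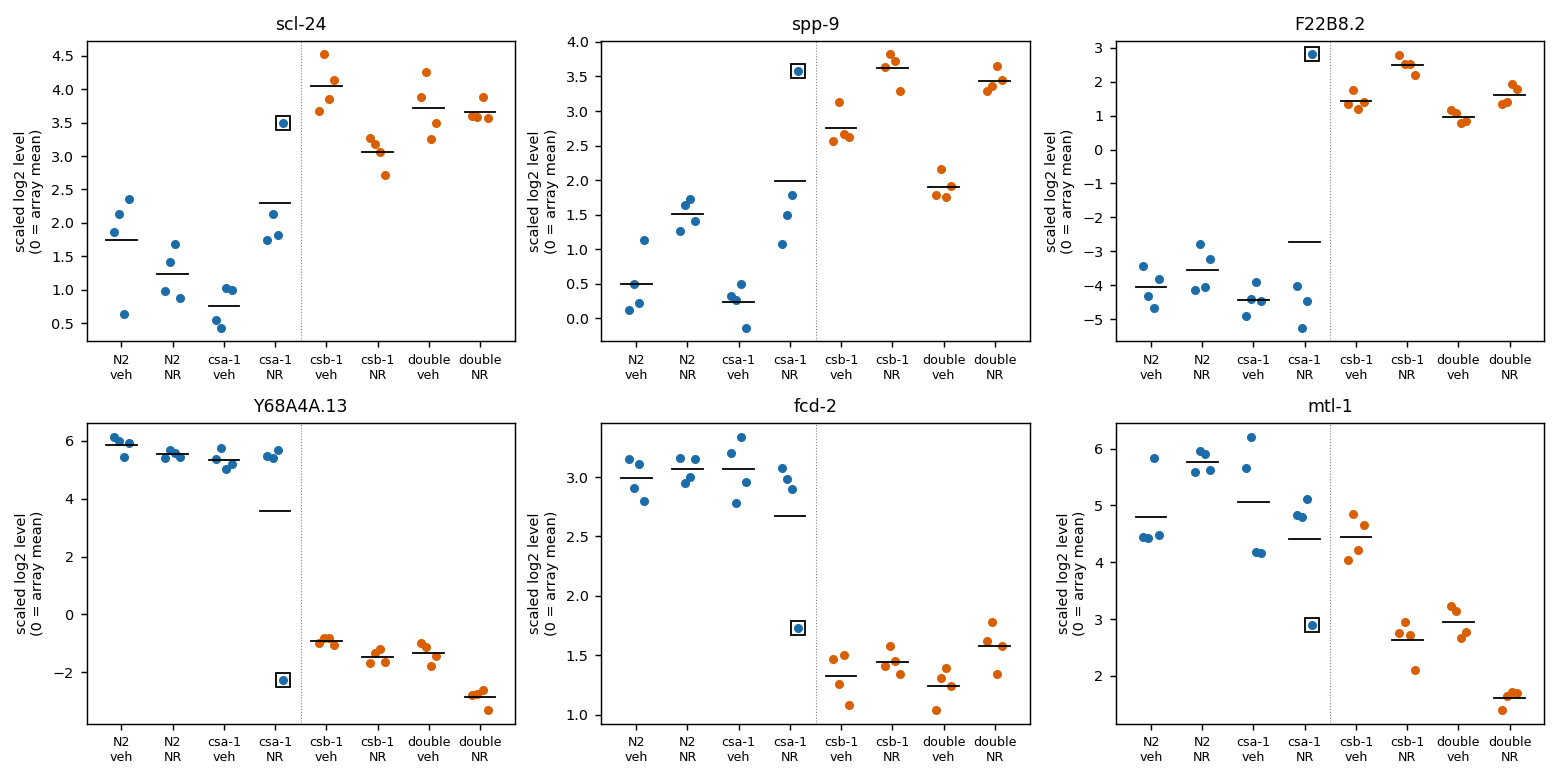
Scaled log2 level (0 is the array mean) of 6 genes on each of 32 arrays in 8 groups of 4, with blue points for intact csb-1, orange points for csb-1 mutants and bars for group means. The black square is the array labelled as csa-1 NR replicate 4, which reads 3.49 for scl-24, 3.58 for spp-9, 2.81 for F22B8.2, -2.25 for Y68A4A.13, 1.73 for fcd-2 and 2.90 for mtl-1.

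The largest fall was in Y68A4A.13, a gene on chromosome V. It read -3.30, -1.37 and -0.80 on the mutant arrays, while the 15 intact arrays other than csa-1 NR replicate 4 lay between 5.03 and 6.14. The difference was -6.72 (SE 0.45, adjusted p = 2e-11), which is 105-fold on this scale, and -7.17 without that array. Its measured neighbour Y68A4A.12, named after its values were seen, was well above background on 0 of 16 mutant and 14 of 16 intact arrays. The intact arrays were at least 2.46-fold higher for Y68A4A.12 (difference -3.33, SE 0.26, adjusted p = 4e-10), a bound set against the dimmest signal that an array could tell from background. The measured genes on either side of this pair, srw-74 (-0.13) and srh-236 (-0.12), had adjusted p = 0.79 and were above background on 0 of 32 arrays, so the extent of the fall along the chromosome cannot be read from them. Further out on the srw-74 side, Y68A4A.5 was above background on 14 mutant and 12 intact arrays and differed by 0.03 (SE 0.17, limma adjusted p = 0.95).

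fcd-2, the worm counterpart of the Fanconi anaemia gene FANCD2, which acts in the repair of DNA crosslinks, fell with little spread. It read 1.04, 1.40 and 1.78 on the mutant arrays and 1.73, 2.99 and 3.34 on the intact arrays, the lowest intact value again being that of csa-1 NR replicate 4. The difference was -1.55 (SE 0.11, adjusted p = 3.7e-11), and by pair it was -1.67 and -1.82 on vehicle and -1.63 and -1.09 on NR, in N2 and csa-1 mutants in that order. The -1.09 includes csa-1 NR replicate 4 at 1.73, while the other csa-1 NR arrays read 2.90 to 3.08. fcd-2 was the 1 gene that passed of 40 measured genes of DNA damage signalling and other repair, whose median was 0.05.

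mtl-1, a metallothionein gene that binds metals, fell by 2.09 (SE 0.28, adjusted p = 1.3e-05), from a median of 4.97 to 2.76. In N2 the difference was -0.35 on vehicle and -3.13 on NR. In csa-1 mutants it was -2.1 on vehicle and -2.8 on NR, so the fall was present on vehicle there. The csb-1 by treatment term of mtl-1 passed (-1.74, adjusted p = 0.032). The lipase gene lipl-2 (-1.41, SE 0.19, adjusted p = 1.6e-05), the aspartyl protease gene asp-13 (-1.66, SE 0.23, adjusted p = 2.3e-05) and the invertebrate lysozyme gene ilys-5 (-1.38, SE 0.14, adjusted p = 1.7e-07) fell as well. The rest of the 12 largest falls were clx-1 (-2.59), the cuticle collagen gene col-40 (-2.42), C01F1.5 (-1.89), clec-45 (-1.55), F58G6.3 (-1.36) and clc-24 (-1.33). With slide as a random block, F58G6.3 no longer passed (adjusted p = 0.057), while the other 23 of these 24 genes did.

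**Figure D3:**
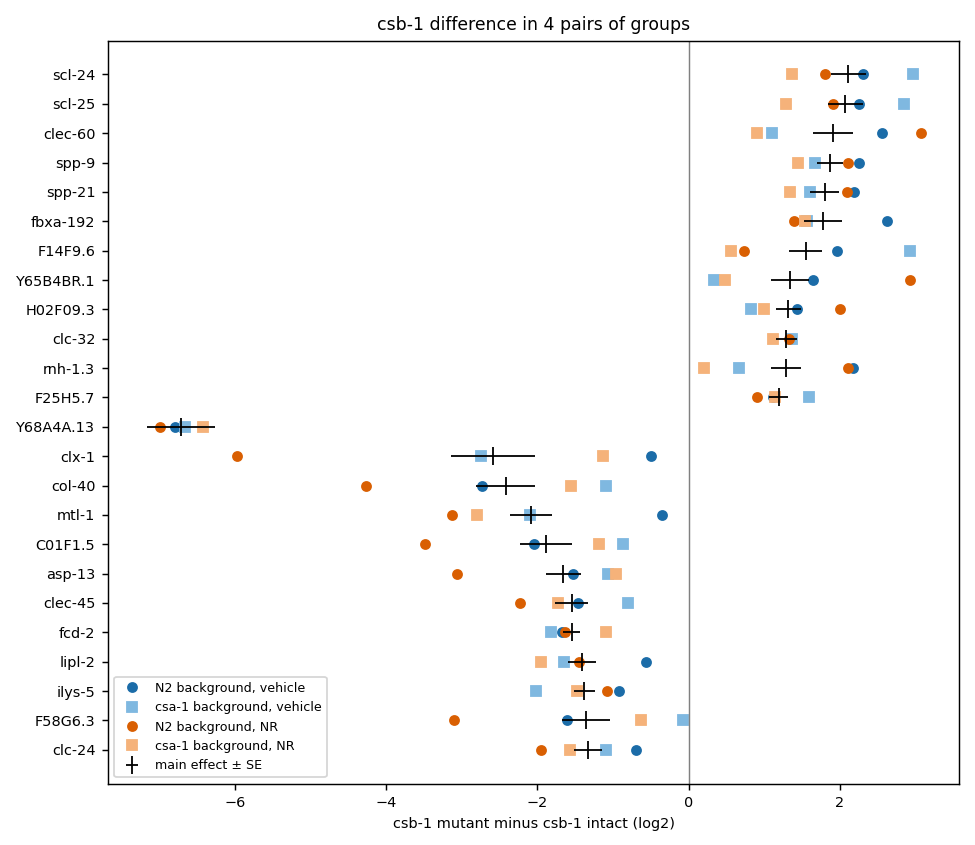
The csb-1 mutant minus intact difference (log2) of 24 genes in each of 4 pairs of groups (points) and as the main effect with its SE (black, over 32 arrays). All 24 genes have the same sign in each pair by the rule that chose them, and the spread between pairs is narrow for clc-32 (1.12 to 1.37) and wide for clx-1 (-5.98 to -0.50).

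A run of genes on chromosome V rose together, a pattern picked out after the values were seen. F22B8.2 read 0.78, 1.41 and 2.78 on the mutant arrays, and the 15 intact arrays other than csa-1 NR replicate 4 lay between -5.26 and -2.78. The gene was well above background on 16 mutant and 3 intact arrays and differed by 5.33 (SE 0.44, adjusted p = 1.8e-09), but its mean level was under 0, so it was not among the 391. The size of this difference rests on dim intact signals and was 2.06 with normexp. Next to it the chemoreceptor gene srj-29 rose by 1.84 (SE 0.20, adjusted p = 3.7e-07) and F14H3.12 by 0.74 (SE 0.12, adjusted p = 0.00031). Beyond srj-10, which did not pass (0.02, adjusted p = 0.97), followed the nuclear hormone receptor gene nhr-176 (0.80, SE 0.13, adjusted p = 0.00028) and the cytochrome P450 gene cyp-35D1 (3.31, SE 0.47, adjusted p = 3.6e-05). cyp-35D1 read -0.71, 0.06 and 0.68 on the mutant arrays and -5.60, -3.35 and 0.81 on the intact arrays, of which 6 were well above background. Its difference was 0.93 with normexp. csa-1 NR replicate 4 was again the highest intact array, and the next stood at -1.01, below every mutant array. CYP-35D1 is known to metabolise thiabendazole, and NHR-176 is known as a regulator of its gene. srj-10 and F22B8.4 (-0.23, adjusted p = 0.52) were above background on 0 arrays and F14H3.9 (-0.29, adjusted p = 0.73) on 1 mutant and 1 intact array, so they set no end to the run. Past F22B8.4, F22B8.7 was above background on 16 mutant and 16 intact arrays. It differed by -0.02 (SE 0.11, limma adjusted p = 0.95), so the rise did not reach that gene.

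Along the chromosomes, 102 of the 618 named genes that passed by adjusted p (16.5%) lay next to a measured gene that passed in the same direction. No share for genes in random order was worked out, so no clustering is read from this count or from the runs that follow. There were 8 runs of 3 or more, among them a rise of clec-70, clec-71 and clec-174 on chromosome IV (0.98 to 1.44) and a fall of the caenacin genes cnc-11, cnc-1 and cnc-5 on chromosome V (-1.31 to -0.72). Near csb-1 on the X chromosome, 1 of its 10 nearest measured neighbours passed, F53H4.2 (-0.67, SE 0.13, adjusted p = 0.0021). The share of genes that passed was 2.16% on chromosome I, 2.32% on II, 2.34% on III, 3.76% on IV, 4.06% on V and 3.33% on X.

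No listed gene of the process that CSB serves passed in the fit across genes. In that fit csb-1 was read by its brightest probe (-0.05), not by probe A_12_P159795 (-2.93). Of 21 measured genes of nucleotide excision repair, 22 of SWI2/SNF2 remodellers, 65 of RNA polymerase II with its general factors and Mediator, and 44 of splicing, none passed in the limma fit at adjusted p of at most 0.05, against 2.73% of all genes. At an unadjusted p under 0.05 there were 2, 3, 8 and 3 genes in these lists. Their medians were 0.00, 0.05, 0.02 and 0.01, and that of all genes was 0.01. The widest differences among the repair genes were those of rad-23 (-0.22, SE 0.08, adjusted p = 0.17) and mnat-1 (0.21, SE 0.09, adjusted p = 0.26).

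Over all genes 1.88% fell and 0.851% rose by adjusted p, and the counts of the lists below are read beside those shares. In the list of lysosomal proteases, lipases and V-ATPase subunits 11 of 58 members fell and 1 rose, with a median of -0.08. The members that fell held the lipase genes lipl-1 (-0.78), lipl-2 (-1.41), lipl-3 (-1.04) and lipl-5 (-0.83) and the cysteine protease genes cpr-5 (-0.86), cpr-6 (-0.80) and cpr-8 (-0.99), while asp-17 rose (0.77). With slide as a random block 9 fell and 1 rose, and with normexp 6 fell and none rose. lipl-5 read 4.68, 5.35 and 6.17 on the mutant arrays and 4.96, 6.30 and 7.44 on the intact arrays, which overlapped.

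Among defence genes, the antimicrobial peptide and C-type lectin families held falls and rises, as did all genes (479 lower, 217 higher). The lysozyme family held falls only. Of 83 antimicrobial peptide genes 13 fell and 4 rose, with a median of -0.21. The falls held caenacin genes such as cnc-1 (-1.31, SE 0.23, adjusted p = 0.00062) and the neuropeptide-like peptide genes nlp-25, nlp-27 and nlp-28 (-0.81, -0.77 and -0.44), and the rises were all spp and abf genes: spp-9, spp-21, abf-3 (0.84) and spp-4 (0.44). Of 241 C-type lectin genes 16 fell and 5 rose, from clec-13 (-1.84, SE 0.39, adjusted p = 0.005) to clec-60. Of 16 lysozyme genes 5 fell and none rose, among them ilys-2 (-1.16, SE 0.15, adjusted p = 1.3e-05) and lys-7 (-0.68, SE 0.16, adjusted p = 0.011). With slide as a random block 7, 8 and 2 genes of these families fell, and with normexp 2, 7 and 2. The lectin gene clec-65 read 4.57, 5.31 and 6.28 on the mutant arrays and 4.81, 6.60 and 7.47 on the intact arrays, a difference of -1.08 (SE 0.13, adjusted p = 4.2e-06).

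Genes of detoxification were read beside the same shares of all genes (1.88% lower, 0.851% higher). Of 77 cytochrome P450 genes 10 fell, led by cyp-34A9 (-1.17, SE 0.14, adjusted p = 2.2e-06) and cyp-13A5 (-1.03, SE 0.15, adjusted p = 7.2e-05), and cyp-35D1 alone rose. cyp-34A9 read -0.06, 0.36 and 1.05 on the mutant arrays and 0.20, 1.61 and 2.12 on the intact arrays, with csa-1 NR replicate 4 as the lowest intact value and 0.97 as the next. Of 67 UDP-glucuronosyltransferase genes, which conjugate lipophilic compounds, 6 fell and 2 rose, with ugt-17 (-0.86, SE 0.15, adjusted p = 0.00069) first by p. Without N2 vehicle replicate 1 the falls in this family numbered 11, and without csa-1 NR replicate 4 they numbered 10. Of 46 glutathione S-transferase genes 3 fell, gst-6 by 0.93 (SE 0.18, adjusted p = 0.0024). Among 27 genes of superoxide and peroxide defence, gpx-7 (-0.98) and sod-3 (-0.67), a mitochondrial superoxide dismutase gene, fell and trx-3 (0.66) rose. With normexp 3 cytochrome P450 genes fell, and no member of the glucuronosyltransferase or glutathione S-transferase families passed. With slide as a random block 7 cytochrome P450, 3 glucuronosyltransferase and 2 glutathione S-transferase genes fell, and no glucuronosyltransferase gene rose.

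In lipid metabolism 9 of 64 genes of fatty acid oxidation and acyl-CoA handling fell and none rose. cpt-3, a carnitine palmitoyltransferase gene, fell by 0.87 (SE 0.14, adjusted p = 0.0002) and the acyl-CoA dehydrogenase gene acdh-1 by 0.89 (SE 0.21, adjusted p = 0.014). acdh-1 was near the detection limit, above background on 7 mutant and 10 intact arrays. With slide as a random block 2 of the 64 fell and with normexp none, and leaving out 1 array at a time gave 4 to 10 falls, with 15 of the 32 arrays moving the count by over 1.5 times. nhr-68, a nuclear receptor gene of propionate metabolism, fell by 0.66 (SE 0.10, adjusted p = 7.8e-05). Of the 5 vitellogenin genes, which encode yolk proteins, vit-6 fell (-0.53, adjusted p = 0.044), and all 5 differences were below 0. vit-6 no longer passed with slide as a random block (adjusted p = 0.17) or on leaving out any 1 of 20 of the 32 arrays.

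Among signalling genes, 3 of 40 insulin-like peptide genes rose and 1 fell, against 0.851% and 1.88% of all genes. Leaving out 1 array gave 3 to 7 rises and 0 to 2 falls, with 5 rises without csa-1 NR replicate 4. ins-7, which encodes an insulin-like ligand, rose by 0.93 (SE 0.21, adjusted p = 0.0079), ins-39 by 0.86 and ins-11 by 0.73, and with slide as a random block none of the 40 passed. None of 11 genes from the insulin receptor to DAF-16 passed, and 2 had an unadjusted p under 0.05. Of 20 genes of NAD synthesis and use, nprt-1, a nicotinate phosphoribosyltransferase gene, rose (0.77, SE 0.20, adjusted p = 0.031), but not with slide as a random block (adjusted p = 0.13).

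Receptor and regulator families were read by adjusted p. Of 279 nuclear hormone receptor genes 3.23% passed, against 2.73% of all genes. In this family 7 fell and 2 rose, among them nhr-115 (-0.55, SE 0.10, adjusted p = 0.0014), nhr-8 (-0.46) and nhr-114 (-0.43). Without N2 vehicle replicate 1 this family had 15 falls and without csa-1 NR replicate 4 it had 11. Of 486 F-box, MATH and BTB genes (2.06% passed) 8 fell and 2 rose, from btb-16 (-0.69, SE 0.09, adjusted p = 7.3e-06) and math-45 (-0.90, SE 0.12, adjusted p = 1.2e-05) to fbxa-192, and leaving out 1 array gave 5 to 15 falls, the highest without N2 vehicle replicate 1. Of 1566 chemoreceptor genes, of which 1067 were above background on any array and 19 on all 32, 0.702% passed, 8 higher and 3 lower, and leaving out 1 array gave 4 to 11 higher and 1 to 9 lower. Of 53 argonaute and small RNA genes alg-4 (0.56, SE 0.12, adjusted p = 0.0056) and wago-10 (0.50) rose and rde-8 (-0.42) fell. Under a random slide block wago-10 (adjusted p = 0.17) and rde-8 (adjusted p = 0.18) no longer passed, and each was lost on leaving out any 1 of 16 arrays.

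Secreted and cuticle proteins were also read. Of 58 transthyretin-related genes 5 fell and none rose, ttr-42 by 0.61 (SE 0.12, adjusted p = 0.0025) and ttr-45 by 0.56 (SE 0.14, adjusted p = 0.017). Under a random slide block 1 of them fell, and leaving out 1 array at a time gave 3 to 7 falls. Of 176 cuticle collagen genes col-183 rose (0.92, SE 0.22, adjusted p = 0.016) and col-40 and dpy-14 (-0.43) fell, a share of 1.7%. Under a random slide block col-183 (adjusted p = 0.083) and dpy-14 (adjusted p = 0.1) no longer passed, and dpy-14 was lost on leaving out any 1 of 15 arrays. Of 11 metallothionein and dod genes, the latter named for their response downstream of DAF-16, mtl-1, mtl-2 (-0.78, SE 0.15, adjusted p = 0.0013) and dod-3 (-1.0) fell and dod-20 (0.88, SE 0.19, adjusted p = 0.0062) rose.

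Mitochondrial gene lists held 1 gene that passed. gas-1, a subunit of respiratory complex I, fell by 0.62 (SE 0.11, adjusted p = 0.001) among 50 genes of the respiratory chain and ATP synthase. None of 70 mitochondrial ribosomal proteins, 14 genes of the mitochondrial unfolded protein response, 33 of mitophagy and autophagy or 8 of fission and fusion passed in the limma fit, and 2, 3, 5 and 1 of them had an unadjusted p under 0.05. All 78 cytosolic ribosomal protein genes were below 0, with a median of -0.33, but none passed (20 at an unadjusted p under 0.05), and with quantile normalization the median was 0.02 with 47 above 0.

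Tissue markers were read beside these lists. Of 5 intestine markers ges-1 (-0.60, adjusted p = 0.0027) and vha-6 (-0.40, adjusted p = 0.025) fell, while elt-2, the intestinal GATA factor gene, stood at -0.03 and act-5 at 0.36, and all 5 were well above background on all 32 arrays. The mean level of the intestine markers was 3.34 to 4.10 on the mutant and 3.54 to 4.49 on the intact arrays. None of 33 oocyte and germline genes, 8 early embryo genes, 56 sperm family genes or the muscle, pharynx, hypodermis and coelomocyte markers passed, and 2 of 35 spermatogenesis genes rose. snb-1 was the 1 of 7 neuron markers that fell (-0.46, adjusted p = 0.035), and the mean level of these markers was 1.53 to 2.38 on the mutant and 1.55 to 2.12 on the intact arrays. Under a random slide block vha-6 (adjusted p = 0.1), snb-1 (adjusted p = 0.12) and fer-1, one of the spermatogenesis genes (0.72, adjusted p = 0.16), no longer passed. snb-1 was also lost on leaving out any 1 of 8 arrays and fer-1 on any 1 of 20. The part of intestine content in the falls of intestinal genes was not tested.

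**Figure D4:**
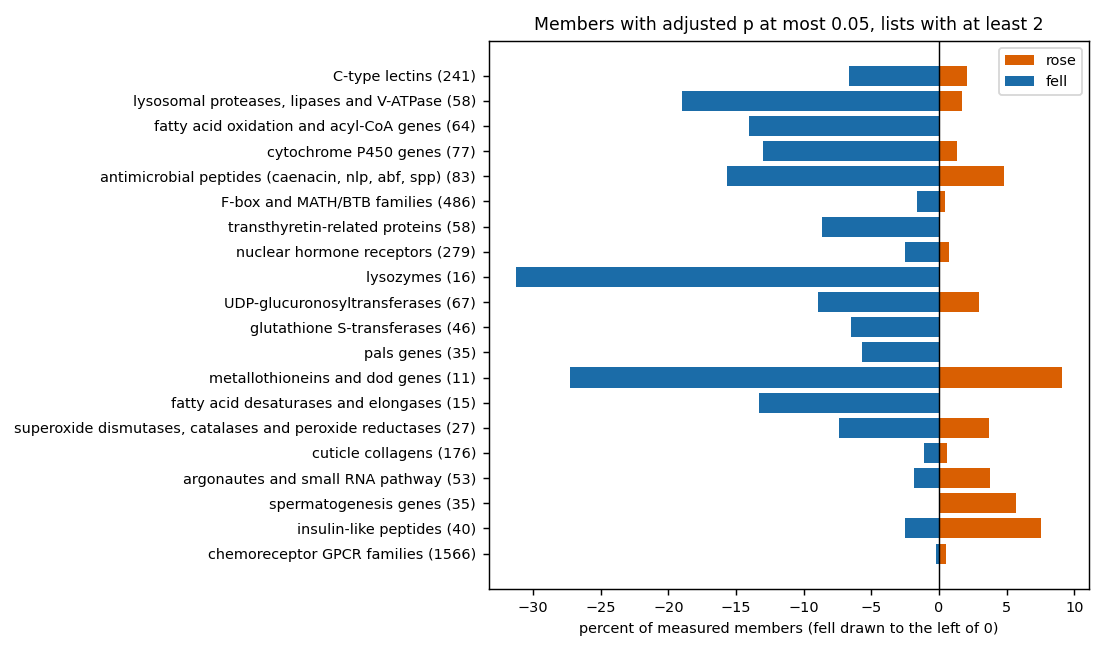
Percent of the measured members (number in brackets) of 20 gene lists that rose (orange, right of 0) or fell (blue, left of 0) at adjusted p of at most 0.05, for lists of at least 10 measured genes with at least 2 such members. 5 of 16 lysozyme genes and 11 of 58 lysosomal genes fell, and chemoreceptor genes stay near 0 with 8 of 1566 higher.

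Whether the csb-1 difference was the same in both csa-1 backgrounds was tested with the csb-1 by csa-1 term. It passed for 1676 genes (6.57%), of which 36 were among the 391, and none of the 391 had opposite mean signs in the 2 backgrounds. The 391 were chosen on the mean over both backgrounds, so nothing is read from that overlap or from those signs. Of the 1676, 1017 had a csb-1 difference that was more negative in csa-1 mutants and 659 one that was more positive. The 4 smallest p belonged to genes on chromosome IV: F56D6.8 (-2.48, adjusted p = 7.4e-07), dct-8 (-2.32, adjusted p = 2.5e-06), dct-7 (-2.40, adjusted p = 3e-06) and F56D6.9 (-1.74, adjusted p = 3e-06). Without csa-1 NR replicate 4 the term passed for 1383 genes, and without N2 vehicle replicate 3 for 2803.

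dct-8, named for its control by DAF-16, was at 4.60 ± 0.31 in N2 and 5.02 ± 0.33 in csb-1 mutants on vehicle (SD, n = 4). In the csa-1 background it went the other way, with 4.07 ± 0.36 in csa-1 mutants and 2.92 ± 0.11 in double mutants. The flavin monooxygenase gene fmo-2 was at -1.22 ± 1.09 in N2 and 2.67 ± 0.29 in csb-1 mutants on vehicle, but at -0.47 ± 0.34 in csa-1 mutants and -0.65 ± 0.27 in double mutants (by csa-1 term -3.54, adjusted p = 3.7e-05). On NR csa-1 NR replicate 4 read 3.25 for fmo-2, while the other 3 arrays of that group read 0.48 to 0.77. bbs-5, a gene of the ciliary BBSome, differed by -1.05 on vehicle and -1.25 on NR in N2, and by 0.06 and 0.18 in csa-1 mutants.

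The csb-1 by treatment term passed for 342 genes (1.34%), 21 of them among the 391. The 391 were chosen on the mean over both treatments, so nothing is read from that overlap either. For 290 of the 342 the csb-1 difference was more negative on NR than on vehicle, and for 52 more positive. dao-6 was at 3.84 ± 0.30 in N2 and 3.65 ± 0.18 in csb-1 mutants on vehicle, and at 4.56 ± 0.21 and 2.75 ± 0.37 on NR (by treatment term -1.73, adjusted p = 0.0012). F14F9.6 differed by 1.96 and 2.93 on vehicle and by 0.73 and 0.56 on NR, in N2 and csa-1 mutants in that order (term -1.80, adjusted p = 0.0012). Leaving out 1 array moved this count to between 181, without csb-1 NR replicate 4, and 527, without N2 vehicle replicate 4. It was 219 without N2 NR replicate 2, 204 without csa-1 vehicle replicate 4, 223 and 212 without double mutant vehicle replicates 1 and 2, and 209 and 227 without double mutant NR replicates 1 and 2. With normexp the by-treatment term passed for none of the genes by limma (1184 at an unadjusted p under 0.05), and the by-csa-1 term for 172.

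**Figure D5:**
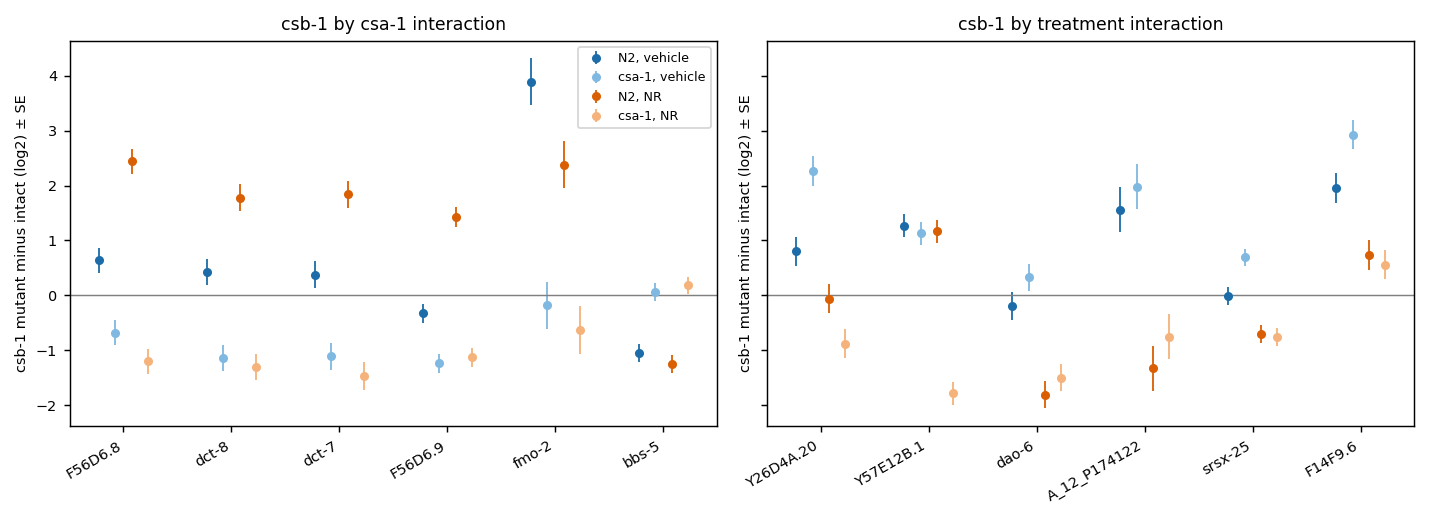
The csb-1 mutant minus intact difference (log2, with SE, 4 arrays a group) in N2 and csa-1 backgrounds on vehicle and NR, for 6 genes with the smallest p of the csb-1 by csa-1 term (left) and of the csb-1 by treatment term (right). fmo-2 differs by 3.89 in N2 and -0.18 in csa-1 mutants on vehicle, and F14F9.6 by 1.96 on vehicle and 0.73 on NR in N2.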

How the data were processed

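Whole worms of 8 groups with 4 samples each were profiled on 1-colour Agilent arrays. The deposited scanner files hold intensities per spot, already background-corrected by the authors' Feature Extraction 11.5.1.1 (gProcessedSignal). The series table deposited by the authors holds a score per spot, which matched the Z-score of the log signal within 0.005, and above-background marks per spot came with the deposited intensities. The log2 of the deposited intensity was converted to a Z-score per array and multiplied by 3.74, the mean SD over arrays. Of 45220 spots, 1417 controls were left out, and so were 289 probes with outlier marks. The brightest probe stood for a gene, and 19793 of 25497 genes matched the reference names. limma 3.58.1 in R 4.3.3 fitted csa-1, csb-1 and treatment with Benjamini-Hochberg adjustment, and interactions came from the full factorial model. Nothing in the labels says that arrays were separate cultures, and the methods name fewer replicates than the 4 arrays a group, so p-values measure the spread between these samples, which may be technical.

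The design, the members and the gene lists were chosen with earlier results of these data known. Named were the 12 largest called differences in each direction with the same sign in all 4 pairs, up to 3 genes per list by p, both mutated genes, 10 neighbours of csb-1 and 6 genes per interaction. The fit was tested on simulated data with known changes. Replicate numbers did not pair the samples (mean correlation 0.0125 for the same number, -0.00317 for others). Alternatives varied scaling, background, probes, slide, arrays and weights. No sequences were printed, and array coordinates were not used here.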

Additional observations from a re-analysis of the deposited data

Results flagged for a closer look

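The array labelled as csa-1 NR replicate 4 stood far from the other 3 arrays of its group in 8 of the 26 gene values examined (24 genes with the largest differences and the csb-1 and csa-1 probes). It read -4.55 on the csb-1 probe (others -0.20 to 0.01), 0.79 on the csa-1 probe (others -1.23 to -0.96), -2.25 for Y68A4A.13 (others 5.39 to 5.69), 1.73 for fcd-2 (others 2.90 to 3.08), -0.16 for clec-45 (others 3.16 to 3.37), 2.90 for mtl-1 (others 4.79 to 5.11), 4.87 for spp-21 (others 2.48 to 2.78) and 2.43 for clc-32 (others 0.61 to 0.91). Over the 391 called genes it was nearer to the mean of the csb-1 mutant arrays for 83.4% of genes, against 9.21% to 36.8% for the other 15 intact arrays and 48.6% to 97.2% for the mutant arrays. For 18 of the 24 genes it lay within the range of the mutant arrays and for 0 of 24 within that of the other 15 intact arrays. The 391 and the 24 genes were chosen by the labels of these same arrays, so the ranges of the other arrays are in part set by that choice.

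In 208 sets of 4 arrays, 16 had such a far array. The rule for a far array nominally flags about 1 set in 20 by chance, a rate that was not measured here. The other 8 were scl-24 at 3.88 in the double mutant on NR, scl-25 at 2.51 and Y65B4BR.1 at 4.55 in csb-1 on NR, F14F9.6 at 3.41 and clec-45 at 0.98 in the double mutant on vehicle, mtl-1 at 5.83 in N2 on vehicle, C01F1.5 at -0.41 in csb-1 on vehicle and clc-24 at -0.26 in the double mutant on NR.

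The csb-1 difference itself differed by treatment, by the interaction term, for F14F9.6 (-1.80), mtl-1 (-1.74), Y26D4A.20 (-2.0), Y57E12B.1 (-1.5), dao-6 (-1.73), A_12_P174122 (-2.81) and srsx-25 (-1.07). It differed by csa-1 status for clec-60 (-1.81), Y65B4BR.1 (-1.88), rnh-1.3 (-1.71), asp-13 (1.28), F58G6.3 (2.0), F56D6.8 (-2.48), dct-8 (-2.32), dct-7 (-2.40), F56D6.9 (-1.74), fmo-2 (-3.54) and bbs-5 (1.27). A positive value is a difference that was more positive on NR or in csa-1 mutants.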

How the results depend on the processing

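The count of 391 called genes stayed within 1.5 times under 75th percentile scaling (428), quantile normalization (488), the deposited scores, a filter on dim probes, the mean of all probes, a replicate block (380), a brightness covariate and NR arrays or intact csa-1 arrays alone. It fell to 81 with normexp, 241 with slide as a random block, 85 on vehicle arrays alone, 213 in csa-1 mutants alone and 5 on 8 slide means, and rose to 587 with array weights. The causes were not tested. A similar count did not mean the same genes. Of the 391, 211 were among the 581 called on NR arrays alone and 213 among the 525 called with intact csa-1 alone. The 696 genes by adjusted p alone became 1466 under 75th percentile scaling, 1107 with quantile normalization, 1.2e+02 (rounded) with normexp, 319 with the slide block, 11 on slide means, 120 on vehicle, 1369 on NR, 441 in csa-1 mutants, 1760 with array weights and 1140 without N2 vehicle replicate 1 and csa-1 NR replicate 4, a pair chosen after seeing the data. The 75th percentile scaling moved the median of all genes to -0.10. The 342 genes of the by-treatment term became 682, 861 and 0, and the 1676 of the by-csa-1 term 2537, 2597 and 172, with 75th percentile scaling, quantile normalization and normexp. The csb-1 probe difference, -2.93 against mutants above background on 4 of 16 arrays, was -0.83 with normexp. The csa-1 probe no longer passed with normexp (-0.48, adjusted p = 0.2) or on slide means (-1.08, adjusted p = 0.25). pals-24 turned to 0.22 with normexp. The share of lower calls was 74.4% in the reported fit and 82.2% with 75th percentile scaling, but 57.6% on vehicle, 57% on NR, 54.3% with intact csa-1 and 65.3% in csa-1 mutants alone, and 40% on slide means. The fit with a replicate block gave 672 genes by adjusted p, 348 for the by-treatment term and 1635 for the by-csa-1 term, and 12 of 32 arrays correlated best with their own number.

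Leaving out 1 array at a time gave 340 to 454 called genes, 563 to 937 by adjusted p, 181 (without csb-1 NR replicate 4) to 527 (without N2 vehicle replicate 4) for the by-treatment term and 1231 to 2803 (without N2 vehicle replicate 3) for the by-csa-1 term. The csb-1 probe stayed between -3.19 and -2.83 and the csa-1 probe between -1.21 and -1.01. Of the 24 called genes named for their size, 19 lost significance on slide means, 10 in csa-1 mutants alone, 6 on vehicle alone, 3 with normexp, 1 with the slide block and 1 on NR alone. None lost it on leaving out 1 array, and none reversed. Signal over background limits the low genes, with 46.9% to 78.45% of gene spots well above background on an array. Of the 81 genes called with normexp, 79 were among the 391.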
